A study of Mus musculus with 12 samples.

Results

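The protease inhibitor genes of S1 tumorspheres were compared over 4 groups of libraries, named in the labels as control, *Nf2*-KO, *Rasa1*-KO and a KO of both genes (double-KO). The members were chosen by gene symbol alone, as the protein-coding serpins, tissue inhibitors of metalloproteases (*Timp*), Kunitz-type inhibitors (*Spint*), cystatins (*Cst*), genes with whey acidic protein domains (*Wfdc* and *Slpi*), *Reck* and *Pzp*. The rule found 39 of the 18926 genes in the tables, of which 13983 are protein coding. These were 23 serpins, 5 cystatins, 4 *Timp* genes, 4 genes with whey acidic protein domains, 2 Kunitz-type inhibitors and *Pzp*. RefSeq holds 114 protein-coding symbols of these forms, and 75 of them, *Reck* included, have no row in the tables and were not analysed here. Every gene in the tables had at least 1 count in every library, and all 39 members passed the filter on low counts. That *Serpinb7* stood highest in cells without *Nf2* was known when the family was chosen, so its levels against control are given as a description and without a test.

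Serpins are proteins that trap a target protease by offering it a reactive loop as bait and then changing shape with the enzyme attached, which ends the activity of both. Clade A serpins are mostly secreted, many of them into plasma by the liver, clade B serpins act mostly inside epithelial and immune cells, and clade E serpins block the activators of plasminogen. Some members have lost the inhibitory function and act as hormone carriers or chaperones. Cystatins inhibit cysteine cathepsins, Timp proteins inhibit matrix metalloproteases, and Kunitz-type and whey acidic protein domain inhibitors act on serine proteases at or outside the cell surface. In gastric and other carcinomas the balance between these inhibitors and their proteases bears on how the extracellular matrix is remodelled.

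S1 is a cell line from a gastric cancer of a ChetPS mouse, whose alleles are *Cdh1* F/+, *Trp53* F/F and *Smad4* F/F, and all 4 groups share this origin. The cells stably expressed Cas9 and were selected as a pool rather than as single clones, sgRNAs were delivered by lentivirus, and controls carried a non-targeting sgRNA or the plain vector backbone. Tumorspheres, the round clusters formed in suspension, were grown in serum-free medium with epidermal growth factor, whereas the labels call the cells a monolayer. Each group had 3 libraries of total RNA without rRNA, and nothing states that they came from separate cultures. The study calls such points technical replications, so p-values may measure technical spread only.

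Total counts were between 43818139 and 95340850 in control, 81566766 and 85170568 in the *Rasa1*-KO-labelled libraries, 84440583 and 87751112 in *Nf2*-KO, and 76472023 and 96674463 in the double-KO-labelled ones. Levels are CPM, the count of a gene relative to the library's total with the TMM correction for composition, and levels are compared between genes only as the deposited FPKM, which also divide by transcript length. *Nf2* RNA was 13.6 ± 0.631 CPM (SD, n = 3) in *Nf2*-KO, 58.2 ± 2.82 in control, 11.9 ± 0.253 in the *Rasa1*-KO-labelled libraries and 58.9 ± 3.30 in the double-KO-labelled ones. *Rasa1* RNA was 71.3 ± 9.54 CPM in control, 98.5 ± 2.21 in *Nf2*-KO, 31.9 ± 2.27 in the *Rasa1*-KO-labelled libraries and 20.5 ± 2.80 in the double-KO-labelled ones. *Nf2* RNA was thus low in the *Rasa1*-KO-labelled libraries and at the control level in the double-KO-labelled ones, and the names of the deposited tables give these 2 groups the other way round. The groups below keep the labels, and every direction drawn from either of them rests on labels that *Nf2* RNA and the table names go against. With the labels exchanged, the values of these 2 groups change places.

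Libraries of control and of the double-KO-labelled group also differed among themselves. The unnumbered control library had a median chi-square of 24.6 and 38.7 per gene against its sister libraries, which had 6.89 against each other, where sampling alone gives 0.455. Library 1 labelled double-KO stood apart in the same way. Among the members, *Serpinf1* was at 0.0956 CPM in the unnumbered control library and at 3.09 and 2.20 in its sisters, *Serpine2* at 23.3 against 130 and 147, and *Serpinh1* at 208 against 88.9 and 55.8. For the genes named below, where leaving out either of them ended a call against control or moved a called fold by over 1.5 times, the value without it is given as well.

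The labelled cell type was set against marker genes. Of 6 epithelial markers all were in the tables, with a summed FPKM between 2139 and 4158 over the 12 libraries and *Krt8* as the most abundant. The sum is mostly keratins, and the adhesion genes did not follow it, as *Epcam* was 6.20-fold and *Cdh1* 4.25-fold lower in *Nf2*-KO than in control (adjusted p = 1.0e-06 and 2.2e-06) and 2.92-fold and 2.98-fold lower in the *Rasa1*-KO-labelled libraries (5.6e-05 and 2.5e-05). The double-KO-labelled libraries, at 23.6, 42.7 and 41.5 CPM of *Epcam*, also lay below control, with a mean of 64.3. Their *Cdh1* overlapped control. Of 6 gastric markers *Gkn2* was not listed, and the summed FPKM was between 3.74 and 23.3. *Cldn18* had means between 0.171 and 0.376 CPM in the 4 groups. *Muc5ac* was 22.2-fold and *Muc1* 8.57-fold lower in *Nf2*-KO than in control (adjusted p = 1.3e-05 and 7.5e-06). In the *Rasa1*-KO-labelled libraries they were 15.6-fold and 4.45-fold lower (3.6e-05 and 1.1e-04). *Muc5ac* was 3.82-fold lower in the double-KO-labelled ones (0.014), where *Muc1* overlapped control. *Tff1* was 4.75-fold higher in the *Rasa1*-KO-labelled libraries (0.017), and *Tff2* passed in no comparison. Fits with fewer libraries are not given for these. Of the leukocyte markers *Adgre1* and *Lyz2*, of the squamous ones *Krt5* and *Krt6a*, and of the endothelial ones *Cdh5* were not listed. The squamous markers, led by *Ivl*, summed to 9.01 to 11.6 FPKM in control, 6.11 to 8.48 in the *Rasa1*-KO-labelled libraries, 3.74 to 4.08 in *Nf2*-KO and 19.1 to 33.0 in the double-KO-labelled ones. *Krt13* did not follow this sum, with means of 0.844 CPM in control and 3.30 in *Nf2*-KO (adjusted p = 7.2e-05). It had 5.16 in the *Rasa1*-KO-labelled libraries (1.4e-05) and 1.73 in the double-KO-labelled ones. The leukocyte markers, led by *Cd68*, summed to 4.31 to 6.83 FPKM in control, 14.3 to 16.5, 11.1 to 11.9 and 5.19 to 12.4 in the same order, while *Ptprc* had group means between 0.222 and 0.412 CPM. The endothelial ones, led by *Pecam1*, summed to between 0.123 and 0.390 FPKM. The part of these markers in the results below was not tested. The 6 fibroblast markers, all listed and led by *Col3a1*, had summed FPKM of 22.2, 184 and 161 in the control libraries, 397 to 427 in the *Rasa1*-KO-labelled ones, 1157 to 1236 in *Nf2*-KO and 22.7 to 48.6 in the double-KO-labelled ones. The 4 hepatocyte markers, led by *Fgb*, summed to 33.8 to 41.3 FPKM in control, 1.49 to 2.22 in the *Rasa1*-KO-labelled libraries, 1.08 to 1.67 in *Nf2*-KO and 25.5 to 28.0 in the double-KO-labelled ones. In bulk RNA, fewer cells of a type and less RNA per cell cannot be told apart.

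Among the most abundant members per length in control were *Cst3*, with a median of 158 FPKM, *Cstb* with 136, *Timp2* with 112 and *Serpinb6a* with 93.6. At the other end, 14 of the 39 members had a median control FPKM under 1.

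Most members differed in expression between the groups. With edgeR's quasi-likelihood test and an adjusted p under 0.05 as the call, 28 of 39 members (71.8%) differed among the 4 groups, beside 46.3% of the 18053 genes tested. This F-test does not depend on which of the doubtful labels is which. In *Nf2*-KO against control 26 members (66.7%) were called, 17 higher and 9 lower, beside 42.8% of all genes. In the *Rasa1*-KO-labelled libraries against control 22 (56.4%) were called, 15 higher and 7 lower, beside 41.9%. In the double-KO-labelled ones against control 9 (23.1%) were called, 5 higher and 4 lower, beside 6.46%. The median log2 fold change of the members was 0.15, 0.46 and -0.06 in these 3 comparisons, and that of all genes was -0.07, -0.08 and -0.04. The counts include *Serpinb7*, called higher in each of these 3 comparisons, although its rise without *Nf2* was known when the family was chosen. The 3 comparisons share the control libraries, so they are given side by side and no overlap between them is counted.

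The count for the double-KO-labelled libraries moved with the libraries used. It was 19 without the unnumbered control library, 23 without both libraries that stand apart, 5 with libraries paired by the numbers in the table names, and 1 when only these 2 groups were fitted, beside 30.1%, 29.9%, 1.96% and 0.102% of all genes. In the last of these fits the calls of *Serpina3g*, *Serpina3i*, *Timp3*, *Serpinb1a*, *Serpini1*, *Serpina7* and *Serpinb11* were lost (adjusted p of 0.056 to 0.38). Leaving out the unnumbered control library added calls against control, among them those of *Cst9*, *Wfdc2*, *Serpinb6a*, *Serpinf1*, *Timp2*, *Serpinb2* and *Cst3* in the double-KO-labelled libraries, *Spint1*, *Timp1*, *Serpinh1*, *Cst6* and *Cstb* in the *Rasa1*-KO-labelled ones and *Serpinb8* in *Nf2*-KO. The counts for the other 2 groups against control stayed between 18 and 33 under each library left out and without both libraries, while the share of all genes called went from 30.7% to 67.0%.

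**Figure D1:**
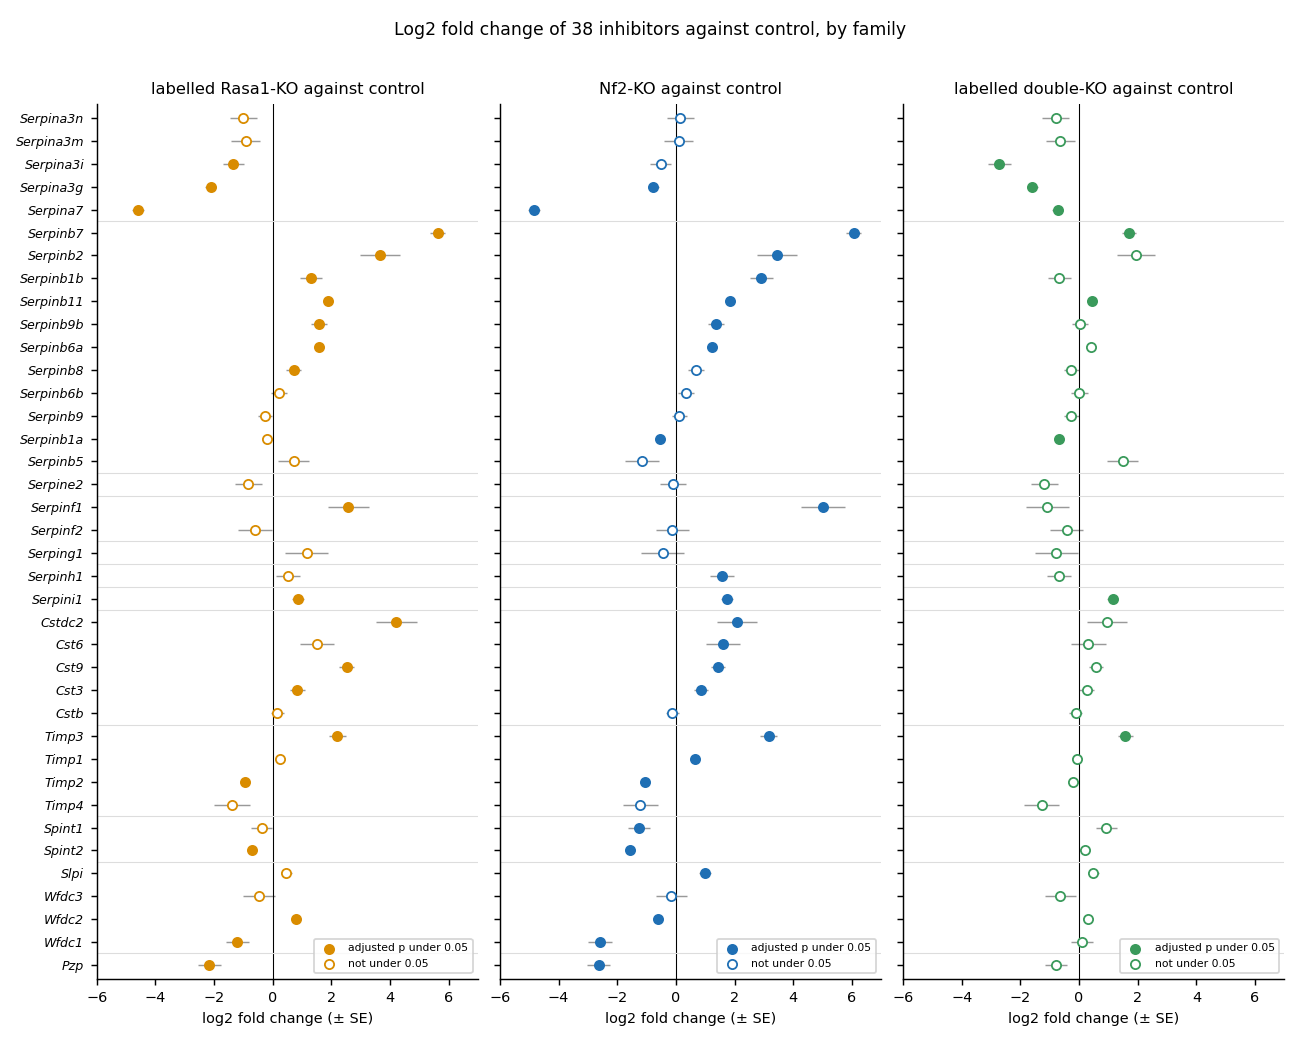
Log2 fold change against control for 38 of the inhibitors, grouped by family from serpins at the top to *Pzp* at the bottom, with bars of 1 standard error; filled points have an adjusted p under 0.05. *Serpinb7* lies farthest to the right in the first 2 panels, at 5.62 and 6.06, and *Serpina7* farthest to the left, at -4.59 and -4.84, while the third panel spans -2.72 to 1.94. The fill of *Serpinb7* is not read as a test, because its rise was known when the family was chosen.

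Most of the clade B serpins that were called in the 2 groups with low *Nf2* RNA were higher. Of 11 members, *Serpinb7* included, 6 were higher and 1 lower in *Nf2*-KO against control, 7 higher in the *Rasa1*-KO-labelled libraries, where the other 4 did not pass, and 2 higher and 1 lower in the double-KO-labelled ones. These calls were 63.6%, 63.6% and 27.3% of the clade, beside 42.8%, 41.9% and 6.46% of all genes. The median log2 fold changes of the clade were 1.24, 1.30 and 0.04. The rise of *Serpinb7*, known when the family was chosen, is among the higher calls of each comparison. With libraries paired by the numbers in the table names, the 3 calls in the double-KO-labelled libraries were lost. *Serpinb2* was then called higher there (adjusted p = 0.032). Its 11 members are 5 genes on chromosome 1, within 748 kb, and 6 on chromosome 13. Further clade B genes of both chromosomes, such as *Serpinb3a* and *Serpinb9c*, were not listed.

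On chromosome 1, in map order, the members are *Serpinb5*, *Serpinb11*, *Serpinb7*, *Serpinb2* and *Serpinb8*. Clade B genes that were not listed lie among them, such as *Serpinb12* between *Serpinb5* and *Serpinb11*, and *Serpinb10* between *Serpinb2* and *Serpinb8*. The 250 bases before the RefSeq start (build GRCm38.p6) are shown for the first 3 members. Their windows end at the base before the annotated gene, and these members differed in their response. Capitals mark TGANTCA, where N is any base, a pattern that reads the same on both strands. It is wider than the AP-1 binding motif, which is TGAGTCA or TGACTCA.
Serpinb5, chr1:106860925-106861174, + strand: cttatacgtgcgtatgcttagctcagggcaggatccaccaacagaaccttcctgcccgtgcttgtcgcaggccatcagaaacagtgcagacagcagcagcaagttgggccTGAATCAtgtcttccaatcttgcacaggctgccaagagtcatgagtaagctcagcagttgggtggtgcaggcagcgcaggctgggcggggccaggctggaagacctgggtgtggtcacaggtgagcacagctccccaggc
Serpinb11, chr1:107362064-107362313, + strand: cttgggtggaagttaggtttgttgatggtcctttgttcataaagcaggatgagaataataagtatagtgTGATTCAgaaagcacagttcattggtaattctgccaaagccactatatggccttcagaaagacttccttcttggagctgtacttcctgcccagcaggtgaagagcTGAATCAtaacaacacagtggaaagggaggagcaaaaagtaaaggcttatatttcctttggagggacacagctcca
Serpinb7, chr1:107422439-107422688, + strand: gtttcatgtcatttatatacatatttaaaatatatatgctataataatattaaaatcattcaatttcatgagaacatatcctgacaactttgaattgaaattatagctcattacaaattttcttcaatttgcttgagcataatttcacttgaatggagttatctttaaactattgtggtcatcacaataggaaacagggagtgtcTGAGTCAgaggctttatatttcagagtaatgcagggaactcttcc

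The pattern TGANTCA was found in a window before an annotated start of all 5 clade B members of chromosome 1. Its letters were TGAGTCA, the AP-1 form, only in *Serpinb7* and *Serpinb8*, and TGAATCA or TGATTCA in *Serpinb5*, *Serpinb11* and *Serpinb2*. The pattern began 45 bases before the start in *Serpinb7*, 140 in *Serpinb5*, 181 and 76 in *Serpinb11*, 94 before the first of 2 starts in *Serpinb2* and 23 in *Serpinb8*. In *Serpinb2* and *Serpinb8* these starts lie inside the annotated gene, and so does the motif. It was found in none of the other 27 members with a window, and in 6.75% of all 32851 windows of this length. GGAATG, a TEAD binding motif searched on both strands, was found in none of these 5, in 6 other members and in 12.6% of all windows. The motifs were chosen with the expression values known, a match is a description of letters and not a binding site, and no match says only that the letters are not in this window.

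*Serpinb7*, or megsin, known from kidney mesangium and epidermis, had 0.287, 0.545 and 0.675 CPM in the control libraries, 25.6, 23.2 and 22.9 in the *Rasa1*-KO-labelled ones, 29.9, 33.7 and 33.8 in *Nf2*-KO and 1.74, 1.67 and 1.33 in the double-KO-labelled ones. The 4 groups did not overlap, and the order from low to high was control, labelled double-KO, labelled *Rasa1*-KO and *Nf2*-KO. By the fitted fold change it was 66.8-fold higher in *Nf2*-KO than in control, 49.2-fold higher in the *Rasa1*-KO-labelled libraries and 3.26-fold higher in the double-KO-labelled ones. It ranked 2 from the top of 18053 genes by log2 fold change in each of the first 2 comparisons. The median level per length was 16.1 FPKM in *Nf2*-KO, above the 14.4 of *Serpinb11*, against 0.273 and 3.84 in control.

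*Serpinb11*, a clade B serpin of epithelia, rose less and from a higher level. It had 7.18, 6.64 and 8.10 CPM in control, 28.2, 24.8 and 27.5 in the *Rasa1*-KO-labelled libraries, 23.7, 28.3 and 27.2 in *Nf2*-KO and 10.1, 9.39 and 10.5 in the double-KO-labelled ones. Both groups with low *Nf2* RNA were separate from control and overlapped each other, at 3.61-fold in *Nf2*-KO (log2 1.85 ± 0.12, adjusted p = 3.9e-07) and 3.67-fold in the *Rasa1*-KO-labelled libraries (log2 1.88 ± 0.12, adjusted p = 5.8e-07). The double-KO-labelled libraries were 1.37-fold higher than control (adjusted p = 0.037), a call that was lost without control library 1 (adjusted p = 0.10) or without any library of that group (0.067, 0.083 and 0.13), and with libraries paired by the numbers in the table names (0.24).

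*Serpinb2*, or PAI-2, an inhibitor of urokinase, had 0.212, 2.08 and 2.30 CPM in control, 20.3, 17.3 and 18.6 in the *Rasa1*-KO-labelled libraries, 15.7, 16.0 and 17.5 in *Nf2*-KO and 1.88, 8.04 and 7.34 in the double-KO-labelled ones. It was 11.0-fold higher in *Nf2*-KO (adjusted p = 0.0018) and 12.5-fold higher in the *Rasa1*-KO-labelled libraries (adjusted p = 0.0015). The double-KO-labelled group overlapped control, with a log2 fold change of 1.94 ± 0.66 (adjusted p = 0.11), of 1.82 (adjusted p = 2.3e-06) without both libraries that stand apart, and of 2.17 (adjusted p = 0.032) with libraries paired by table name.

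The first and last of these members in map order moved less or were low. *Serpinb8*, an inhibitor of furin, had a mean of 4.11 ± 1.62 CPM in control, 6.59 ± 0.692 in *Nf2*-KO (adjusted p = 0.051) and 6.74 ± 0.998 in the *Rasa1*-KO-labelled libraries, where its call (adjusted p = 0.043) was lost without any library but the unnumbered control one (adjusted p of 0.057 to 0.14). *Serpinb5*, or maspin, was low throughout, with 0.314 ± 0.215 CPM in control and 0.136 ± 0.0556 in *Nf2*-KO (adjusted p = 0.12). It was named for its place on the same chromosome after its values were seen, and it was 6.27-fold higher in the double-KO-labelled libraries than in *Nf2*-KO (adjusted p = 0.0037).

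**Figure D2:**
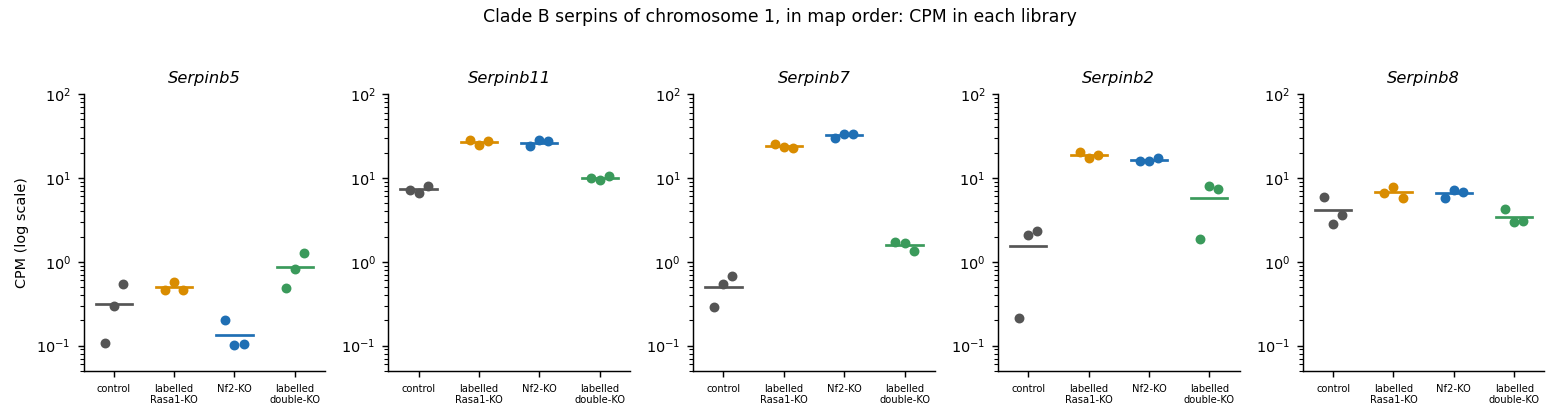
CPM of the 5 clade B members of chromosome 1 in each library on a log axis, in map order, with 1 point per library and a line at the mean of each group. *Serpinb11*, *Serpinb7* and *Serpinb2* are high in *Nf2*-KO and in the *Rasa1*-KO-labelled libraries, and *Serpinb5* stays below 2 CPM in all 12 libraries.

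The 6 clade B members of chromosome 13 include close copies. Reads of *Serpinb1a* and *Serpinb1b*, *Serpinb6a* and *Serpinb6b*, and *Serpinb9* and *Serpinb9b* could have been assigned to the wrong copy, and their values are uncertain to that extent. Reads could also be shared with related genes there that were not listed, such as *Serpinb1c*, *Serpinb6c* and *Serpinb9c*. *Serpinb6a*, an intracellular inhibitor of cathepsin G and thrombin-like proteases, had 188, 145 and 107 CPM in control, 464, 403 and 437 in the *Rasa1*-KO-labelled libraries, 317, 350 and 369 in *Nf2*-KO and 178, 197 and 206 in the double-KO-labelled ones. It was 2.97-fold higher in the *Rasa1*-KO-labelled libraries (adjusted p = 3.4e-05) and 2.36-fold higher in *Nf2*-KO (adjusted p = 1.4e-04), both separate from control. In the double-KO-labelled libraries its log2 fold change was 0.40 ± 0.17 (adjusted p = 0.20).

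*Serpinb1b*, a copy of the neutrophil elastase inhibitor *Serpinb1a*, had 0.276, 0.245 and 0.179 CPM in control, 0.653, 0.608 and 0.488 in the *Rasa1*-KO-labelled libraries, 1.66, 1.93 and 1.78 in *Nf2*-KO and 0.197, 0.0535 and 0.188 in the double-KO-labelled ones. Its *Nf2*-KO libraries were the highest, 7.52-fold above control (adjusted p = 1.0e-04) and 3.06-fold above the *Rasa1*-KO-labelled ones (adjusted p = 0.030, and 0.097 to 0.15 without any one of these libraries). The rise in the *Rasa1*-KO-labelled libraries (2.46-fold, adjusted p = 0.018) was lost without their unnumbered library (adjusted p = 0.057). *Serpinb1a* itself went the other way, from 51.1 ± 7.35 CPM in control to 35.1 ± 2.08 in *Nf2*-KO (adjusted p = 0.0024) and 32.2 ± 1.35 in the double-KO-labelled libraries (adjusted p = 0.0051, and 0.094 with libraries paired by table name). *Serpinb9b*, a copy of the granzyme B inhibitor *Serpinb9*, was 2.57-fold higher in *Nf2*-KO (adjusted p = 0.0019) and 3.00-fold higher in the *Rasa1*-KO-labelled libraries (adjusted p = 7.9e-04), whereas *Serpinb9* and *Serpinb6b* passed in none of the 6 comparisons.

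**Figure D3:**
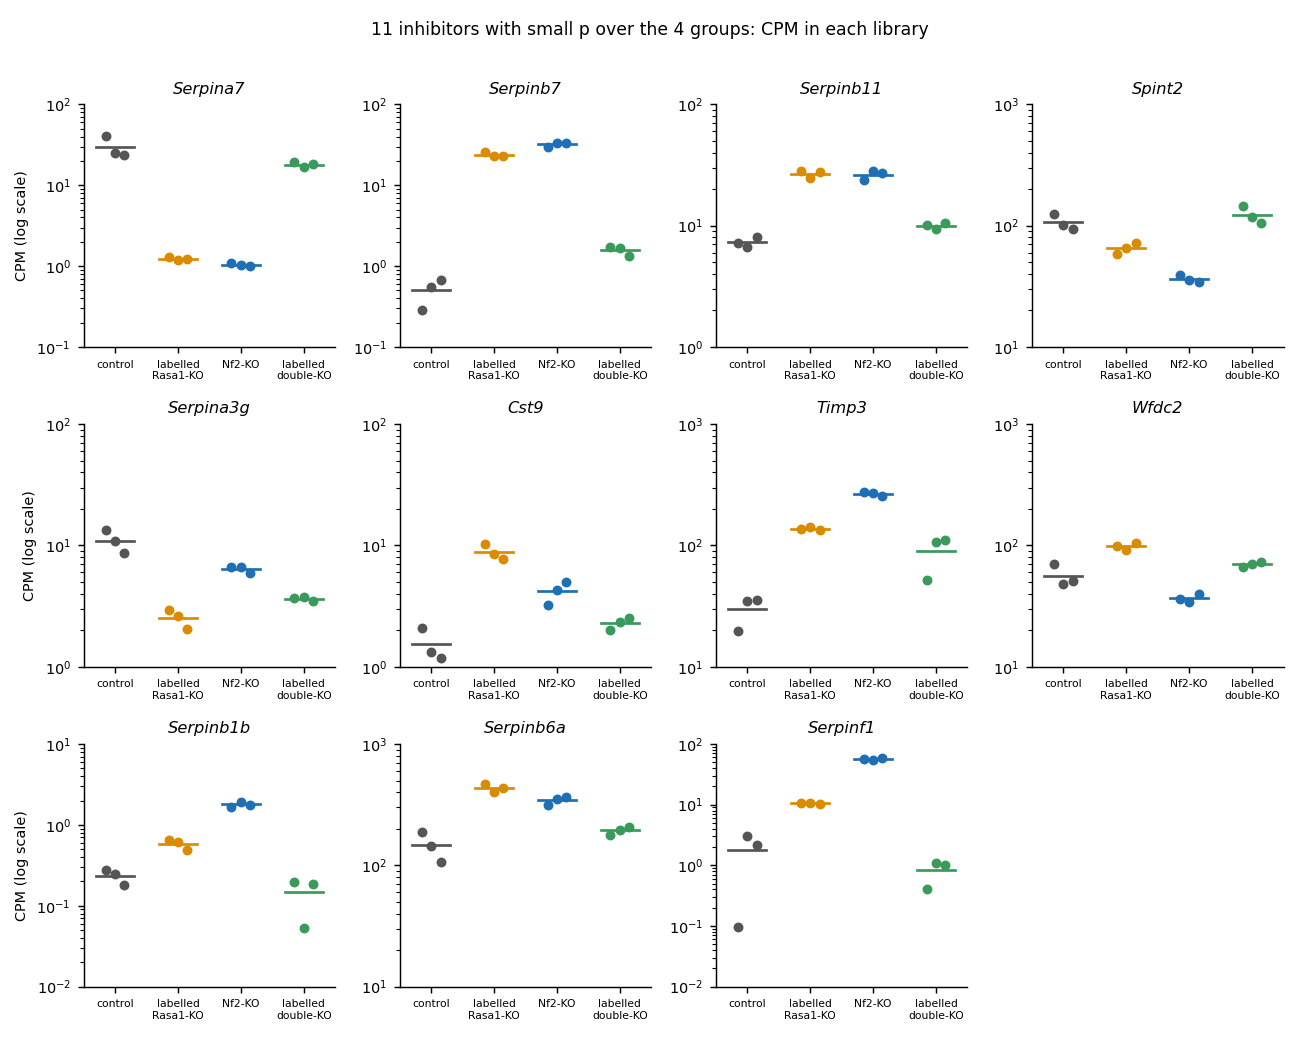
CPM in each library, on log axes that differ between panels, for 11 of the 12 members with the smallest p of the F-test over the 4 groups, with 1 point per library and a line at each group mean. The double-KO-labelled group overlaps control for *Spint2*, *Cst9*, *Wfdc2*, *Serpinb1b*, *Serpinb6a* and *Serpinf1*.

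*Serpine2*, or protease nexin-1, a clade E inhibitor of thrombin and urokinase, passed in none of the comparisons, and its control libraries ranged from 23.3 to 147 CPM. Proteases that serpins act on, and their receptors, were taken from a list. Of its 34 serine proteases and receptors, 15 were in the tables, and 7 were higher and 3 lower in *Nf2*-KO, 7 higher and 3 lower in the *Rasa1*-KO-labelled libraries, and 4 higher and 1 lower in the double-KO-labelled ones. The calls were 66.7%, 66.7% and 33.3% of the list, beside 42.8%, 41.9% and 6.46% of all genes, and its median log2 fold changes were 0.34, 0.39 and 0.44. *Plau*, or urokinase, an activator of plasminogen, rose from 6.80 ± 1.01 CPM to 45.2 ± 2.16 in *Nf2*-KO (adjusted p = 5.6e-08), to 29.8 ± 2.05 in the *Rasa1*-KO-labelled libraries (4.6e-07) and to 14.6 ± 1.28 in the double-KO-labelled ones (6.2e-04). Its receptor *Plaur* rose by 0.43, 0.82 and 0.59 on the log2 scale in the same order (adjusted p = 0.032, 0.0010 and 0.036), and the first and last of these calls were lost without control library 2 (adjusted p = 0.11 and 0.069). *F3*, or tissue factor, the starter of coagulation, rose from 54.2 ± 1.68 CPM to 189 ± 2.63, 176 ± 5.88 and 156 ± 32.6 in that order (adjusted p = 1.4e-06, 3.4e-06 and 1.4e-04). *Htra1*, a secreted serine protease, was 6.13-fold higher in *Nf2*-KO and 3.39-fold higher in the *Rasa1*-KO-labelled libraries, whereas the double-KO-labelled ones had 20.1 ± 0.446 CPM beside 22.5 ± 3.45 in control.

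Clade A serpins were lower or did not pass. Of 5 members, 2 were lower in *Nf2*-KO, 3 in the *Rasa1*-KO-labelled libraries and 3 in the double-KO-labelled ones, and none was higher, so 40.0%, 60.0% and 60.0% were called beside 42.8%, 41.9% and 6.46% of all genes. *Serpina7*, thyroxine-binding globulin, a hormone carrier without inhibitory function, had 40.6, 25.3 and 23.7 CPM in control, 1.29, 1.19 and 1.24 in the *Rasa1*-KO-labelled libraries, 1.08, 1.04 and 0.998 in *Nf2*-KO and 19.2, 16.7 and 18.3 in the double-KO-labelled ones. It was 28.7-fold lower in *Nf2*-KO (log2 -4.84 ± 0.21, adjusted p = 2.8e-08) and 24.0-fold lower in the *Rasa1*-KO-labelled libraries (-4.59 ± 0.21, adjusted p = 6.9e-08), with no overlap with control. The double-KO-labelled libraries were 1.65-fold lower than control (adjusted p = 0.033), a call lost without any one of them (adjusted p of 0.053, 0.14 and 0.13) and with libraries paired by table name (0.11). All 4 hepatocyte markers were lower in *Nf2*-KO, and *Fgb*, *Alb* and *Ttr* in the *Rasa1*-KO-labelled libraries, where *Apoa1* had a log2 fold change of -0.48 (adjusted p = 0.33). In the double-KO-labelled libraries their log2 fold changes were between -0.76 and 0.06, and their part in the *Serpina7* result was not tested.

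The upstream sequence of *Serpina7* is shown because it held GGAATG, in capitals, 42 bases before the outer of its 2 annotated starts, and no TGANTCA.
Serpina7, chrX:139085237-139085486, - strand: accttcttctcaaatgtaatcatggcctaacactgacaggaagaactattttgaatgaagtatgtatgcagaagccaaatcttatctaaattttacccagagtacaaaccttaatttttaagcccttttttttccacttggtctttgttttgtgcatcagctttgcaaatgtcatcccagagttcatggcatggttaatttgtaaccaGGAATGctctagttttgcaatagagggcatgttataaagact

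The *Serpina3* genes of chromosome 12, mouse counterparts of alpha-1-antichymotrypsin, are near-identical copies whose reads may be shared. *Serpina3g* had 13.3, 10.9 and 8.65 CPM in control, 2.95, 2.62 and 2.03 in the *Rasa1*-KO-labelled libraries, 6.67, 6.66 and 5.89 in *Nf2*-KO and 3.67, 3.73 and 3.48 in the double-KO-labelled ones. Its fall was smallest in *Nf2*-KO, at 1.71-fold (adjusted p = 0.0049), against 4.33-fold in the *Rasa1*-KO-labelled libraries (adjusted p = 7.9e-06) and 3.02-fold in the double-KO-labelled ones (adjusted p = 6.9e-04). *Nf2*-KO differed from the first of these by 2.53-fold (adjusted p = 0.0027) and from the second by 1.77-fold (adjusted p = 0.0050). *Serpina3i* was low, at 1.23 ± 0.217 CPM in control and 0.187 ± 0.108 in the double-KO-labelled libraries. It was 6.58-fold lower in the latter (adjusted p = 0.0023, and 0.11 when only these groups were fitted). In the *Rasa1*-KO-labelled ones it was 2.53-fold lower (adjusted p = 0.013, and 0.061 without their library 2), with 1.43-fold in *Nf2*-KO (adjusted p = 0.26). *Serpina3m* and *Serpina3n* passed in no comparison.

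Among the remaining serpins, 3 of 5 were higher in *Nf2*-KO, 2 in the *Rasa1*-KO-labelled libraries and 1 in the double-KO-labelled ones, the first count being 60.0% and the second 40.0% of them, beside 42.8% and 41.9% of all genes, and the third 1 gene beside 6.46%. *Serpinf1*, pigment epithelium-derived factor, a non-inhibitory serpin that blocks vessel growth, had 0.0956, 3.09 and 2.20 CPM in control, 10.7, 10.6 and 10.2 in the *Rasa1*-KO-labelled libraries, 56.3, 54.9 and 59.8 in *Nf2*-KO and 0.405, 1.08 and 1.03 in the double-KO-labelled ones. It was 32.3-fold higher in *Nf2*-KO (log2 5.02 ± 0.76, adjusted p = 2.8e-04) and 5.95-fold higher in the *Rasa1*-KO-labelled libraries (2.57 ± 0.70, adjusted p = 0.012, and 0.076 when only these 2 groups were fitted). These folds became 21.4 and 3.93 without the unnumbered control library and 53.6 and 9.90 without control library 1, with the calls kept. The double-KO-labelled group overlapped control, but differed from it by -1.69 on the log2 scale without the unnumbered control library (adjusted p = 0.0014) and by -1.34 without both libraries that stand apart (1.0e-04), and it was 68.4-fold below *Nf2*-KO (adjusted p = 1.6e-04). *Serpinh1*, the collagen chaperone Hsp47, was at 349 ± 23.0 CPM in *Nf2*-KO against 118 ± 80.3 in control, 2.97-fold higher (adjusted p = 0.010) and 4.84-fold higher without the unnumbered control library, and at 170 ± 9.82 in the *Rasa1*-KO-labelled libraries (adjusted p = 0.32, and 0.0032 without the unnumbered control library). Of the 6 fibroblast markers, 5 were higher in these 2 groups and highest in *Nf2*-KO. In the *Rasa1*-KO-labelled libraries the calls for *Col3a1* and *Pdgfrb* (adjusted p = 0.029 and 0.028) were lost without any one library of that group (0.058 to 0.063), and the former without control library 2 (0.055). *Dcn* went the other way, from 60.8 CPM in control to 36.9 in *Nf2*-KO (adjusted p = 0.036, and 0.078 to 0.14 without any library but the unnumbered control one) and 27.8 in the *Rasa1*-KO-labelled libraries (adjusted p = 0.0041). The part of these markers in the results was not tested.

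*Serpini1*, neuroserpin, an inhibitor of tissue plasminogen activator, rose in all 3 groups. Its means were 2.79 ± 0.253 CPM in control, 9.26 ± 1.20 in *Nf2*-KO, 5.12 ± 0.171 in the *Rasa1*-KO-labelled libraries and 6.14 ± 1.76 in the double-KO-labelled ones, with adjusted p of 3.7e-05, 0.0045 and 0.0061, the last being 0.085 with libraries paired by table name. The C1 inhibitor *Serping1* and the antiplasmin *Serpinf2* did not pass in any of the 6 comparisons.

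Of the 4 Timp genes, *Timp3* and *Timp1* were called higher and *Timp2* lower in *Nf2*-KO, or 75.0% beside 42.8% of all genes. In the *Rasa1*-KO-labelled libraries 1 was higher and 1 lower (50.0%, beside 41.9%). In the double-KO-labelled ones 1 was higher (25.0%, beside 6.46%). *Timp3*, which stays bound to the matrix and also inhibits ADAM proteases, had 19.6, 34.7 and 35.6 CPM in control, 138, 142 and 133 in the *Rasa1*-KO-labelled libraries, 277, 271 and 257 in *Nf2*-KO and 52.2, 106 and 110 in the double-KO-labelled ones. Each of the 3 groups was above all control libraries, by 8.97-fold in *Nf2*-KO (log2 3.16 ± 0.29, adjusted p = 5.7e-06) and 4.60-fold in the *Rasa1*-KO-labelled ones (adjusted p = 9.1e-05). The double-KO-labelled ones were 2.99-fold above control (adjusted p = 0.0057, and 0.15 when only this group and control were fitted). *Timp2*, which also serves in activating Mmp2, went the other way and had 291, 423 and 508 CPM in control, 205, 223 and 210 in the *Rasa1*-KO-labelled libraries, 214, 187 and 182 in *Nf2*-KO and 386, 332 and 330 in the double-KO-labelled ones.

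Of these, *Timp2* was 2.09-fold lower in *Nf2*-KO (adjusted p = 4.2e-04) and 1.92-fold lower in the *Rasa1*-KO-labelled libraries (adjusted p = 0.0012), and the double-KO-labelled and control groups overlapped. *Timp1* was 1.56-fold higher in *Nf2*-KO (adjusted p = 0.0029), and *Timp4* was low, with means between 0.0879 and 0.241 CPM, and passed in no comparison. Per length, *Timp2* had the highest median of the 4 in control, at 112 FPKM beside 28.3 for *Timp1* and 7.11 for *Timp3*. In *Nf2*-KO the medians were 54.2 FPKM for *Timp3*, 48.5 for *Timp2* and 42.6 for *Timp1*.

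Of 25 metalloproteases on a list 24 were in the tables, and 12 were higher and 5 lower in *Nf2*-KO, 10 higher and 7 lower in the *Rasa1*-KO-labelled libraries, and 3 higher and 4 lower in the double-KO-labelled ones. That was 70.8%, 70.8% and 29.2% of them, beside 42.8%, 41.9% and 6.46% of all genes, with median log2 fold changes of 0.46, 0.31 and 0.05. *Mmp3* and *Mmp10*, the stromelysins, and *Mmp13*, a collagenase, rose in all 3 groups, *Mmp3* by 10.0-fold in *Nf2*-KO, 7.91-fold in the *Rasa1*-KO-labelled libraries and 2.63-fold in the double-KO-labelled ones. *Mmp2*, a gelatinase, was 19.5-fold higher in *Nf2*-KO (log2 4.29, adjusted p = 0.0021, and log2 3.70 without the unnumbered control library), with 0.138 CPM in that control library beside 8.25 and 8.06 in its sisters. *Mmp7*, the matrilysin of glandular epithelium, was 26.8-fold lower in *Nf2*-KO (adjusted p = 8.4e-05) and 50.4-fold lower in the *Rasa1*-KO-labelled libraries (adjusted p = 4.7e-05).

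**Figure D4:**
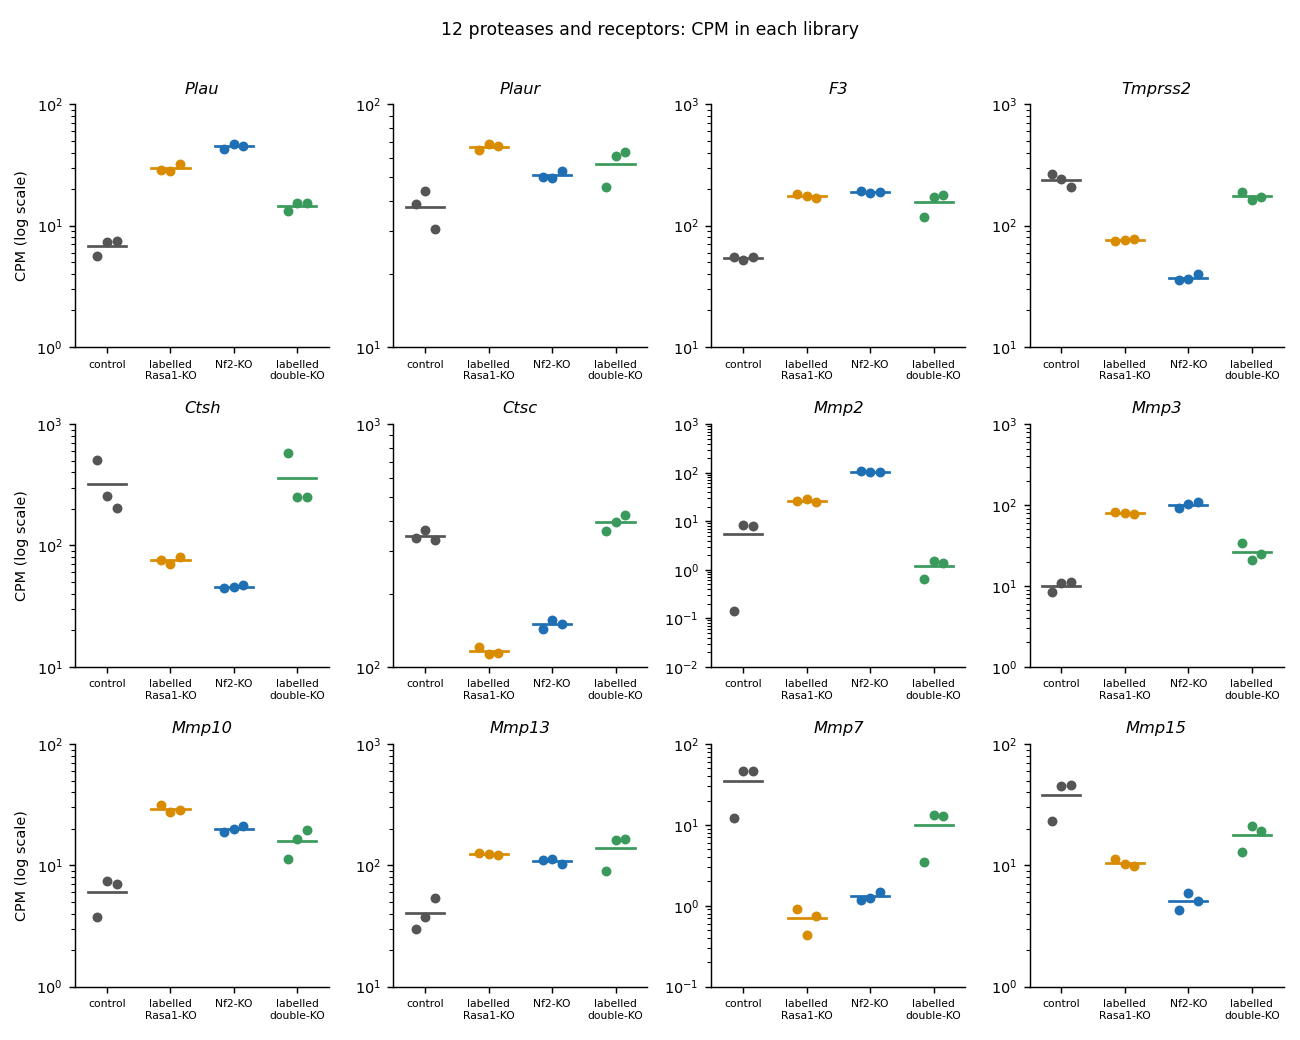
CPM in each library of 12 proteases and receptors, on log axes that differ between panels, with 1 point per library and a line at each group mean. *Plau*, *F3*, *Mmp3*, *Mmp10* and *Mmp13* lie above control in all 3 other groups, and *Ctsh* and *Ctsc* lie below control only in *Nf2*-KO and in the *Rasa1*-KO-labelled libraries.

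Of the 5 cystatins, 4 were higher in *Nf2*-KO and 3 in the *Rasa1*-KO-labelled libraries, or 80.0% and 60.0% beside 42.8% and 41.9% of all genes, and none was lower. In the double-KO-labelled ones 0 were called with edgeR, beside 6.46% of all genes, and 0 with DESeq2, beside 11.5%. There 1, *Cst9*, had an unadjusted p under 0.05 with edgeR. *Cst3*, or cystatin C, the secreted inhibitor of cathepsins and the most abundant member per length in control, had 198, 131 and 85.1 CPM in control, 243, 237 and 260 in the *Rasa1*-KO-labelled libraries, 242, 234 and 268 in *Nf2*-KO and 208, 149 and 141 in the double-KO-labelled ones. It was 1.80-fold higher in *Nf2*-KO (adjusted p = 0.016) and 1.79-fold higher in the *Rasa1*-KO-labelled libraries (adjusted p = 0.018). Both calls were lost without control library 1 (adjusted p = 0.053 and 0.057) and without *Nf2*-KO library 3 or library 2 labelled *Rasa1*-KO (0.055 and 0.055). *Cstb*, or stefin B, which acts inside the cell, had 140, 85.4 and 59.8 CPM in control, 110, 99.6 and 109 in the *Rasa1*-KO-labelled libraries, 81.1, 86.7 and 94.5 in *Nf2*-KO and 92.7, 84.7 and 85.3 in the double-KO-labelled ones. The groups overlapped control, and it passed in no comparison.

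*Cst9*, or testatin, and its neighbour *Cstdc2* on chromosome 2 were highest in the *Rasa1*-KO-labelled libraries. *Cst9* had 2.07, 1.33 and 1.19 CPM in control, 10.3, 8.54 and 7.76 in the *Rasa1*-KO-labelled libraries, 3.23, 4.32 and 4.99 in *Nf2*-KO and 2.02, 2.33 and 2.51 in the double-KO-labelled ones. It was 5.75-fold above control in the *Rasa1*-KO-labelled libraries (adjusted p = 1.5e-05) and 2.71-fold in *Nf2*-KO (adjusted p = 5.5e-04), and these 2 groups differed (2.12-fold, adjusted p = 0.025, and 0.054 to 0.13 without any one of their libraries). *Cstdc2* was at 6.83 ± 0.103 CPM in the *Rasa1*-KO-labelled libraries, 1.56 ± 0.0657 in *Nf2*-KO and 0.388 ± 0.331 in control. Its 18.6-fold difference from control in the first (adjusted p = 6.2e-04) was called without each library in turn and became 32.5-fold without control library 2, and the 4.24-fold one in *Nf2*-KO (adjusted p = 0.025) was lost without control library 1 or any *Nf2*-KO library (adjusted p of 0.052 to 0.078) and became 7.40-fold without control library 2. *Cst6*, or cystatin M/E, was under 1 CPM in every library, and its call in *Nf2*-KO (3.06-fold, adjusted p = 0.041) was lost without control library 2 (adjusted p = 0.086) or any *Nf2*-KO library (0.067 to 0.093) and became 5.80-fold without control library 1.

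Of 18 cysteine and aspartic proteases on a list 16 were in the tables, and 3 were higher and 6 lower in *Nf2*-KO and 2 higher and 3 lower in the *Rasa1*-KO-labelled libraries. In the double-KO-labelled ones 0 were called with edgeR, beside 6.46% of all genes, where 2 had an unadjusted p under 0.05. DESeq2 called 1 there, beside 11.5%. The edgeR calls were 56.2% and 31.2% of the list in the first 2 groups, above and below the 42.8% and 41.9% of all genes. The median log2 fold changes were -0.09, -0.14 and 0.14. *Ctsh*, an aminopeptidase of lysosomes, was 7.01-fold lower in *Nf2*-KO and 4.26-fold lower in the *Rasa1*-KO-labelled libraries (adjusted p = 1.1e-04 and 9.0e-04). *Ctsc*, the activator of granule proteases, was 2.32-fold and 2.99-fold lower in the same order (adjusted p = 1.5e-06 and 4.2e-07). *Ctsl*, a target of *Cst3*, rose from 243 ± 62.6 CPM to 377 ± 33.5 and 373 ± 7.05 in the same order (adjusted p = 0.0079 and 0.0096).

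The Kunitz-type inhibitors of the cell surface, which restrain the activator of hepatocyte growth factor and matriptase, were lower in *Nf2*-KO. *Spint2* had 124, 102 and 94.3 CPM in control, 58.8, 65.5 and 72.6 in the *Rasa1*-KO-labelled libraries, 39.2, 35.4 and 34.4 in *Nf2*-KO and 144, 118 and 105 in the double-KO-labelled ones. It was 2.94-fold lower in *Nf2*-KO (log2 -1.56 ± 0.15, adjusted p = 7.6e-06) and 1.63-fold lower in the *Rasa1*-KO-labelled libraries (adjusted p = 0.0024), and these 2 groups differed by 1.81-fold (adjusted p = 0.0078, and 0.053 without *Nf2*-KO library 2). The double-KO-labelled libraries overlapped control. *Spint1* was 2.39-fold lower in *Nf2*-KO (adjusted p = 0.016), a call lost without control library 1 (0.080) or *Nf2*-KO library 1 (0.060). *Tmprss2*, a membrane serine protease, was 6.40-fold lower in *Nf2*-KO (adjusted p = 2.4e-08), 3.14-fold lower in the *Rasa1*-KO-labelled libraries (8.7e-07) and 1.37-fold lower in the double-KO-labelled ones (0.028, and 0.075 without control library 1).

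*Wfdc2*, the secreted epithelial protein HE4, was the member that moved in opposite directions in the 2 groups with low *Nf2* RNA, with a call in each. It had 70.1, 48.4 and 51.0 CPM in control, 99.5, 92.5 and 104 in the *Rasa1*-KO-labelled libraries, 36.2, 34.2 and 39.5 in *Nf2*-KO and 66.2, 69.8 and 73.1 in the double-KO-labelled ones. It was 1.74-fold higher in the *Rasa1*-KO-labelled libraries (log2 0.80 ± 0.13, adjusted p = 6.6e-04) and 1.54-fold lower in *Nf2*-KO (-0.62 ± 0.13, adjusted p = 0.0030), and the difference between these was 2.69-fold (adjusted p = 3.3e-04). *Slpi*, a secreted inhibitor of leukocyte elastase, was 1.98-fold higher in *Nf2*-KO (adjusted p = 0.0013). *Wfdc1* was 5.99-fold lower in *Nf2*-KO (adjusted p = 3.7e-04) and 2.32-fold lower in the *Rasa1*-KO-labelled libraries (adjusted p = 0.025), a call lost without control library 1 (0.13) or any library of that group (0.064 to 0.075). *Wfdc3* passed in no comparison. *Pzp*, a broad protease trap related to alpha-2-macroglobulin, was under 2 CPM and 6.24-fold lower in *Nf2*-KO (adjusted p = 2.9e-04) and 4.50-fold lower in the *Rasa1*-KO-labelled libraries (adjusted p = 0.0011).

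Of 38 further inhibitors outside the rule 19 were in the tables, and 7 were higher and 7 lower in *Nf2*-KO, 7 higher and 6 lower in the *Rasa1*-KO-labelled libraries, and 4 higher in the double-KO-labelled ones. In percent these calls came to 73.7%, 68.4% and 21.1%, beside 42.8%, 41.9% and 6.46% of all genes, and the median log2 fold changes were -0.55, 0.20 and -0.25. *Cd109*, a membrane protein of the macroglobulin family, was 17.2-fold higher and *Tfpi*, the inhibitor of the tissue factor pathway, 3.60-fold higher in *Nf2*-KO. *Spink4*, a Kazal-type inhibitor of mucus-secreting cells, was 19.2-fold lower there, and *Itih2* and *Ambp*, which the liver makes for plasma, were 29.1-fold and 16.5-fold lower, the former 16.3-fold without the unnumbered control library.

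The groups other than control were also set against each other. The *Rasa1*-KO-labelled libraries and *Nf2*-KO differed in 6 members, 3 higher and 3 lower in the former, beside 3.66% of all genes. Those labelled double-KO differed from *Nf2*-KO in 22 members, 8 higher and 14 lower, beside 32.2%, and from the *Rasa1*-KO-labelled ones in 20 members, 7 higher and 13 lower, beside 30.3%. The count of 6 was 2 or 3 without each library of these groups in turn, 12 with DESeq2, 24 without both libraries that stand apart and 26 when only these 2 groups were fitted. The share of all genes moved with it, to between 1.15% and 1.49%, 8.31%, 19.2% and 25.8%. The 6 members were *Wfdc2*, *Spint2* and *Cst9*, higher in the *Rasa1*-KO-labelled libraries, and *Serpina3g*, *Serpinb1b* and *Serpini1*, lower there. The last was 1.81-fold lower (adjusted p = 0.034, and 0.062 to 0.15 without any one of these libraries).

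In all, 28 members were called in at least 1 comparison with control (71.8%, beside 51.8% of all genes) and 11 in none. These 11 were *Cstb*, *Serpina3m*, *Serpina3n*, *Serpinb5*, *Serpinb6b*, *Serpinb9*, *Serpine2*, *Serpinf2*, *Serping1*, *Timp4* and *Wfdc3*. A p that misses the threshold does not show that their levels were equal.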

How the data were processed

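Each of the 12 libraries of total RNA had 1 deposited table. Per the submitters' processing notes in the labels, adapters were removed by Trimmomatic 0.38, HISAT2 2.1.0 and SAMtools 1.9 placed the reads on mm10, and StringTie 2.1.3b quantified RefSeq genes. The deposited read counts are whole numbers per gene without normalization, and the deposited FPKM divide them by depth and length. Counts were tested with edgeR 4.0.16 in R 4.3.3, with TMM scaling, filterByExpr and the quasi-likelihood test in 1 fit of all libraries, and p-values were adjusted by the Benjamini-Hochberg method over 18053 genes. CPM carry no prior count. Alternatives used RLE factors, DESeq2 1.42.0, limma 3.58.1 on log2(FPKM + 1) and log2(FPKM + 0.1), no filter, the study's rule (3-fold, p under 0.05), fewer libraries, blocks and exchanged labels. With 3 libraries against 3, an exact permutation test cannot go below 0.1, so none is given.

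The members and lists were chosen with earlier results of these data known. Named were members called against control, the 5 most abundant in control and *Serpinb7*, and of each list at most 3 genes in each direction of each comparison with control. Values per library are given for the 12 of these with the smallest F-test p, the 5 most abundant and *Serpinb2*. *Serpinb2* in this form, and *Serpinb5* and *Serpine2*, were chosen after their values were seen. The member counts cover all 39, but 1 member is not reported here on its own and was left out of the plots. Leaving out libraries was extended to list genes and markers after seeing the data. Groups follow the labels. All 39 members matched RefSeq, and 7 have no promoter window.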

Additional observations from a re-analysis of the deposited data

How the results depend on the processing

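Members called against control numbered 12 (labelled *Rasa1*-KO), 13 (*Nf2*-KO) and 5 (labelled double-KO) under the study's rule, beside 9.27%, 11.4% and 2.03% of all genes, and by that rule *Nf2*-KO and the double-KO-labelled libraries differed in 12 (7.69%) and the 2 groups of doubtful label in 8 (5.66%). With the labels exchanged *Rasa1*-KO against control had 9 calls and double-KO 22, beside 6.46% and 41.9% of all genes. There were then 22 between *Rasa1*-KO and *Nf2*-KO and 6 between double-KO and *Nf2*-KO, beside 32.2% and 3.66%. Of the members called in the *Rasa1*-KO-labelled libraries against control, the log2 fold changes turned for *Spint2* (0.20), *Serpinb1b* (-0.67), *Serpinf1* (-1.08), *Wfdc1* (0.10) and *Serpinb8* (-0.26) because other libraries carry the name. For the double-KO-labelled libraries against control the count of 9 became 1 when only these groups were fitted, 5 with the replicate block by table names, where same-numbered libraries correlated at 0.626, 0.313 and 0.444, and 23 without the unnumbered control library and library 1 labelled double-KO, beside 0.102%, 1.96% and 29.9% of all genes. The count of 6 between the *Rasa1*-KO-labelled libraries and *Nf2*-KO became 12 with DESeq2, 26 when only these groups were fitted, 10 on log2(FPKM + 1) and 24 without both libraries that stand apart, beside 8.31%, 25.8%, 4.75% and 19.2%. Between the 2 groups of doubtful label 33 members were called without both libraries, beside 50.3%.

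Leaving out 1 library at a time gave 18 to 31 calls for labelled *Rasa1*-KO, 23 to 30 for *Nf2*-KO and 7 to 19 for labelled double-KO against control, while all genes called went from 30.7% to 60.5%, 32.1% to 61.6% and 2.68% to 30.1%. It gave 2 to 3 between labelled *Rasa1*-KO and *Nf2*-KO, 20 to 23 between labelled double-KO and *Nf2*-KO and 13 to 17 between the 2 groups of doubtful label, the 13 without library 1 labelled *Rasa1*-KO, beside 1.15% to 1.49%, 22.6% to 27.0% and 19.6% to 25.4% of all genes. Calls against control kept in every such fit were 17 of 22, 22 of 26 and 7 of 9, and all were kept without both libraries. Except where given, the cause was not tested.

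The replicate numbers of the titles do not pair the libraries, whose same-numbered pairs correlated between -0.379 and 0.399. With them as a replicate block over the libraries numbered 1 and 2, the 6 counts were 28, 27, 12, 5, 24 and 22, beside 27, 26, 12, 6, 23 and 22 unblocked, a comparison chosen after seeing the data, and 30 members differed among the 4 groups. The blocked shares of all genes were 49.1%, 49.0%, 14.0%, 1.83%, 28.6%, 26.6% and 51.8%. Unblocked, the shares beside the 6 counts were 49.4%, 49.2%, 14.4%, 2.42%, 29.8% and 28.1%. Members under 1 CPM rest on few reads.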
